A study of Mus musculus with 6 samples.

Results

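The genes described here encode MAP kinase phosphatases and the Sprouty and Spred inhibitors, which together form the negative feedback on growth factor and stress kinase signalling. Of 10 listed genes with the target IDs DUSP1, DUSP4, DUSP5, DUSP6, DUSP10, DUSP16, SPRY1, SPRY2, SPRY4 and SPRED2, 8 had a row in the deposited table of 30828 target IDs. No row carries the ID of Dusp5 or Spry1, and these genes are not analysed here. The cells were MC38, a mouse colorectal cancer line, grown in RPMI medium with foetal calf serum. One group (n = 3) was treated for 24 h with EPA (eicosapentaenoic acid, an omega-3 fatty acid found in fish oil) at 50 µM, given as the free acid, and the other group (n = 3) is labelled control, with no vehicle or time given, so EPA cannot be told apart from its vehicle. Expression was read as total RNA on Illumina mouse whole-genome bead arrays, 1 per sample, and a value below is a quantile-normalised intensity on a linear scale with no unit.

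MAP kinases (ERK, JNK and p38) are switched on by phosphorylation of a threonine and a tyrosine in the same loop, and dual-specificity phosphatases (Dusp genes) remove both phosphates. Many of these phosphatases are themselves transcribed when the kinases are active, and Sprouty and Spred proteins, which restrain signalling from the receptor through Ras, are induced in the same way. Their transcripts are therefore widely read as a record of recent MAP kinase activity, and the pathway is often mutated in colorectal cancer.

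A target counted as above background when its intensity exceeded 39.5 on all 3 arrays of at least 1 group. By this rule 6 of the 8 genes could be tested, among 9265 named genes in all. Each array had a median intensity of 35.2, and log2 intensities correlated across genes at 0.994 to 0.997 among EPA arrays, at 0.996 among control arrays and at 0.983 to 0.985 between the groups. Genes are not independent replicates, and the number of arrays limits the precision. Nothing in the labels says that the samples of a group were separate cultures, so the p-values measure a spread that may be technical. Of 13 epithelial and intestinal markers, 2 (Krt8 and Cldn7) were above background, and Epcam, Cdh1, Vil1 and Cdx2 were not. Of 15 immune markers 3 were above background, and the pan-leukocyte marker Ptprc was not. One of the 3, S100a8, fell, with a mean of 69.2 on the EPA arrays and 108 on the control arrays. Of 14 fibroblast and endothelial markers 7 were above background and 5 of these rose. Summed over all 14, those below background included, intensity was 1698 to 1797 on the EPA arrays and 1184 to 1193 on the control arrays. The endothelial markers Pecam1, Cdh5, Tek, Kdr and Vwf were not above background. The part of these marker genes in the results below was not tested.

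Dusp4 rose with EPA, and it was the only 1 of the 6 tested genes to pass the threshold (limma adjusted p of 0.05 over all genes tested). The other 5 had estimates between -0.08 and 0.19 on the log2 scale, and the 95% interval of each lay within 0.5 log2 units of no change. None of the 6 fell, and at an unadjusted p under 0.05 limma likewise gave 1 higher (Dusp4) and 0 lower. For comparison, 34.1% of all genes tested passed the same threshold, 18.4% as higher and 15.6% as lower, so 1 call among 6 is no more than the background share. The EPA and control arrays did not overlap for 2 of the 6 genes, both higher with EPA, against 47.6% of all genes tested (24.9% higher and 22.7% lower with EPA). The median log2 fold change of the 6 was 0.07, against 0.01 over all genes tested. In bulk RNA such as this, fewer cells with a transcript and less transcript per cell cannot be told apart.

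Dusp4 encodes a nuclear phosphatase of ERK and JNK that is induced by ERK activity. Its intensity was 206, 186 and 194 on the EPA arrays, against 132, 132 and 132 on the control arrays. Every EPA array was well above every control array, and the control arrays were almost identical (SD 0.400 about a mean of 132.0). The rise was 1.48-fold (95% interval 1.32 to 1.65; log2 0.56, SE 0.0713, limma adjusted p = 0.000354). This log2 change was larger in size than that of 92.6% of the genes tested. The within-group SD of its log2 intensity was 0.053, and 10.6% of genes had a smaller one. The gene passed under every alternative setting run, with log2 fold changes from 0.51 to 0.68 and limma adjusted p from 0.000119 to 0.0119. The authors' deposited table gives a log2 ratio of 0.564 for Dusp4 with a raw p of 0.01. That table holds 4423 targets with raw p up to 0.05, and none of the other 7 genes with a row is in it. The value summarises 4 probes, combined in a way that the sources used here do not state.

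Dusp1 encodes the stress- and mitogen-induced nuclear phosphatase of p38, JNK and ERK. It read 1265, 1487 and 1456 on the EPA arrays, against 1209, 1099 and 1402 on the control arrays. The groups overlap, since the lowest EPA value lies below the highest control value. The ratio was 1.14 (95% interval 0.968 to 1.34; log2 0.19, SE 0.104), which did not pass (limma adjusted p = 0.198). Leaving out single arrays moved the log2 value between 0.10 and 0.28 without a call. Within-group spread was wide for this gene, with an SD of 0.15 on the log2 scale, above that of 79.6% of the genes tested. A change as large as that of Dusp4 lies outside the interval for Dusp1, whose upper end is 0.42.

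**Figure D1:**
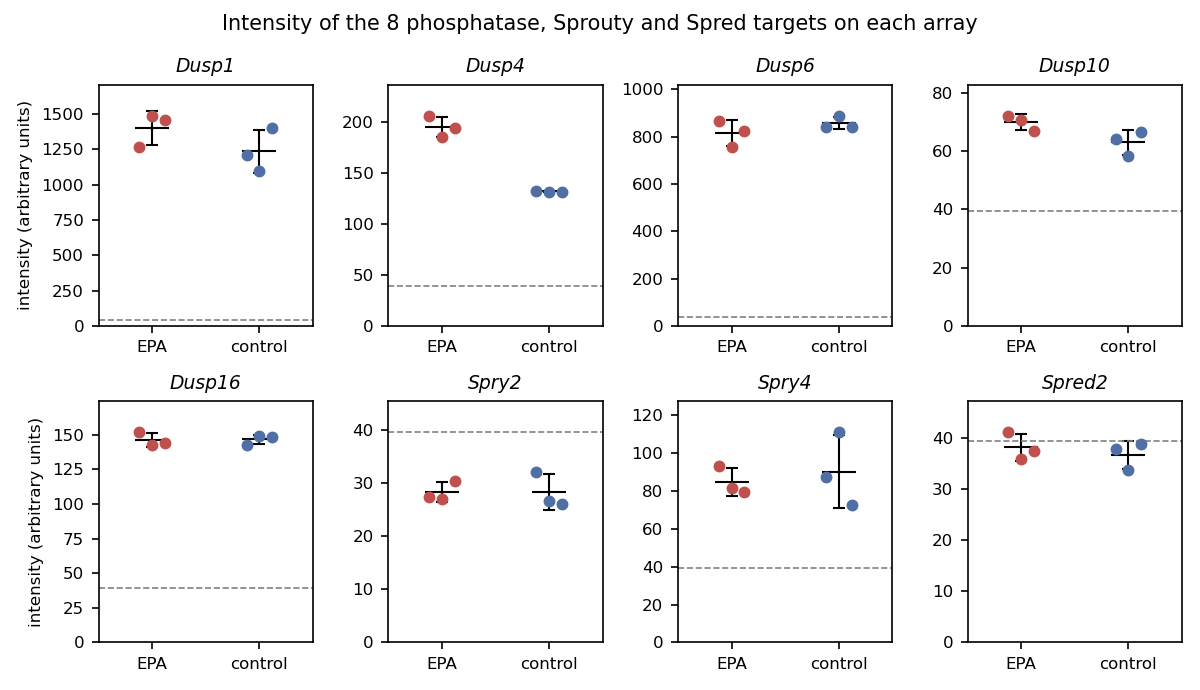
Intensity (vertical axis, linear, arbitrary units) of each of the 8 genes on the EPA arrays (left, red) and the control arrays (right, blue), with 1 point per array; the horizontal mark and bars are the mean and SD of 3 arrays, and the dashed line is the background limit of 39.5. Dusp4 separates clearly, at 186 to 206 with EPA and 132 in control cells, while Spry2 lies under the limit on all arrays and Spred2 is above it on 1.

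Dusp6 encodes the cytoplasmic phosphatase that acts on ERK with high selectivity, and its transcript is one of the most used readouts of ERK output. Its intensity was 867, 757 and 825 with EPA, against 841, 887 and 841 in control cells. The groups overlap, with the highest EPA array above 2 of the control arrays. The log2 fold change was -0.07 (SE 0.077, 95% interval -0.24 to 0.10, limma adjusted p = 0.509). In fold terms the interval runs from 0.845 to 1.07, so a rise as large as that of Dusp4 is outside it. The estimate stayed negative under all alternatives, from -0.12 to -0.02, and passed in none.

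Dusp10 and Dusp16 encode the phosphatases that prefer JNK and p38 over ERK. Dusp10 read 72.1, 70.9 and 67.1 on the EPA arrays, against 64.3, 58.3 and 66.5 on the control arrays. All EPA arrays were above all control arrays, by a narrow margin at the nearest pair, an ordering seen in the same share of genes as given above. The ratio was 1.11 (95% interval 0.986 to 1.25; log2 0.15, SE 0.0777) and did not pass (limma adjusted p = 0.157). These intensities lie close above background. With the background mode subtracted, the log2 value was 0.27, still without a call.

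Dusp16 had the smallest change of the 6 tested genes. It read 152, 143 and 144 with EPA, against 143, 149 and 148 in control cells. The groups overlap fully, and the group means were 146 ± 4.75 with EPA and 147 ± 3.37 in control cells (SD, n = 3 each). The log2 fold change was -0.01 (SE 0.069, 95% interval -0.16 to 0.15, limma adjusted p = 0.956), and 1.96% of genes had a smaller one in size. Its arrays agreed closely within groups, with an SD of 0.04 on the log2 scale, below that of most genes. The interval in fold terms, 0.895 to 1.11, is the narrowest of the 6. The value summarises 5 probes of the array, more than for any of the other listed genes.

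Spry4, a Sprouty protein that inhibits Ras-ERK signalling below receptor tyrosine kinases, was measured with little precision. Its intensity was 93.1, 81.4 and 79.2 with EPA, against 87.3, 111 and 72.5 in control cells. The control arrays span the EPA arrays on both sides. The log2 fold change was -0.08 (SE 0.139, 95% interval -0.39 to 0.24, limma adjusted p = 0.709). Only 3.92% of the genes tested had a larger or equal within-group spread than Spry4 (SD 0.23 on the log2 scale). The sign rests on control replicate 2, the highest array, and without it the log2 value was 0.08. An effect of up to 1.18-fold up or down to 0.765-fold is inside the interval, so these arrays leave its response unresolved.

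Spry2, the Sprouty most often described as an ERK feedback gene in epithelial cells, was below the background limit on all 6 arrays. It read 27.4, 27.0 and 30.4 with EPA, against 32.1, 26.7 and 26.0 in control cells, around the background mode of 28.1. No fold is given for it. Spred2, which recruits the Ras inhibitor neurofibromin to the membrane, read 41.1, 36.0 and 37.4 with EPA, against 37.8, 33.7 and 38.8 in control cells. It exceeded the limit on 1 of 3 EPA arrays and 0 of 3 control arrays, so its level could not be measured in either group. For both genes the arrays show a low or undetected signal, which does not show that the transcripts are absent.

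Dusp4, Dusp1 and Dusp6 are the tested genes whose products act on ERK. Dusp4 had a 95% interval of 0.40 to 0.72 on the log2 scale, Dusp1 one of -0.05 to 0.42 and Dusp6 one of -0.24 to 0.10. The intervals of Dusp4 and Dusp6 do not overlap, and the difference between the 2 changes was not tested in itself. The JNK- and p38-directed pair had estimates of 0.15 (Dusp10) and -0.01 (Dusp16), with overlapping intervals. By size of log2 change, 4 of the 6 genes lay below the median of all genes tested.

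**Figure D2:**
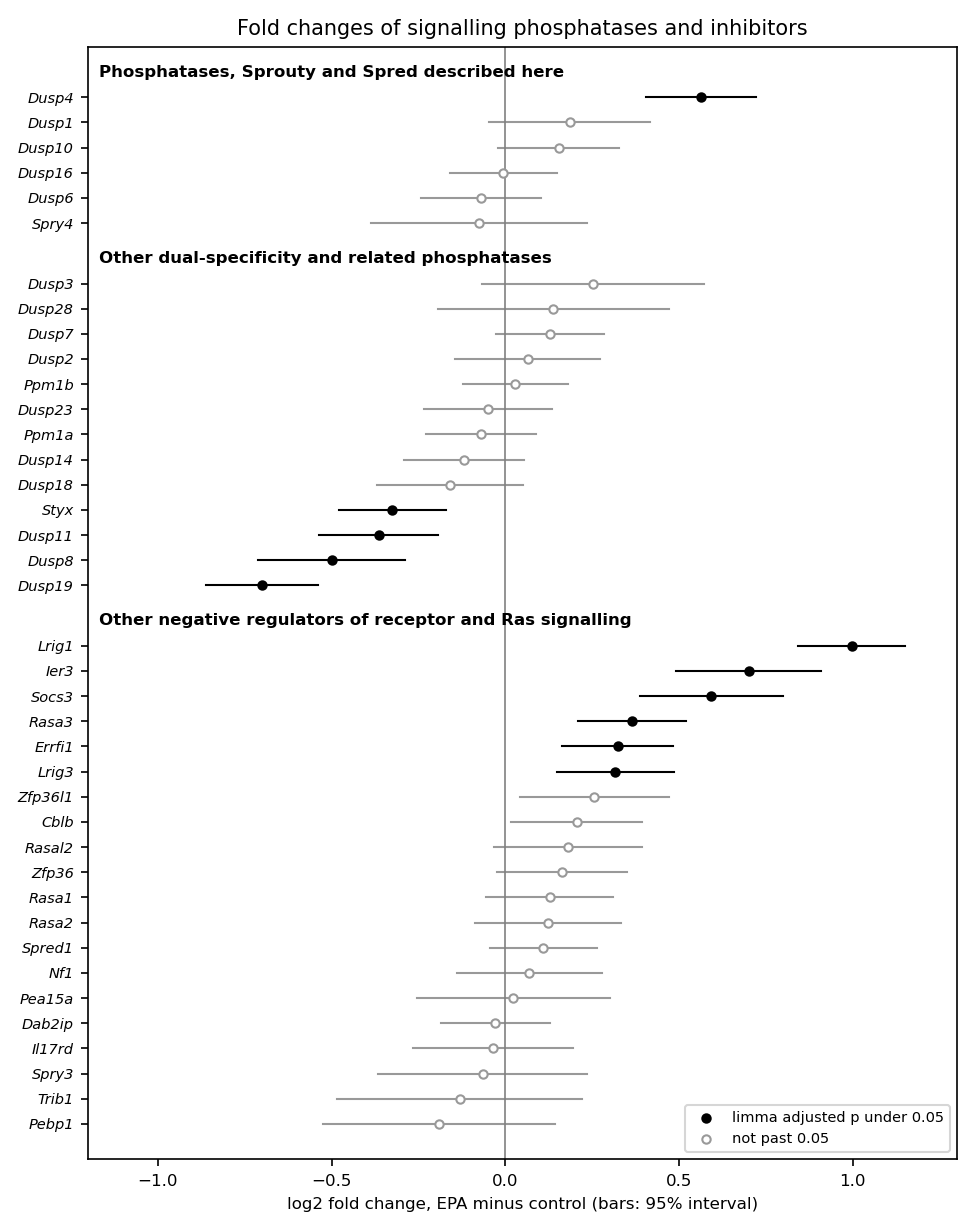
Log2 fold change, EPA minus control (horizontal axis), with 95% intervals from limma, for the 6 tested genes (top) and the measured genes of 2 related lists; filled points passed an adjusted p of 0.05. Dusp4 at 0.56 is the only filled point in the top group. The filled points among the other phosphatases all lie below 0, and those among the genes listed as other negative regulators all lie above 0. Filled points are 30.8% of the other phosphatases and 30.0% of the other negative regulators. Of all genes tested 34.1% passed in either direction, 18.4% as higher and 15.6% as lower.

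None of the measured genes on a list of other phosphatases rose with EPA on the target used. Of 22 other dual-specificity and related phosphatase genes, 13 were measured, of which 0 rose, 4 fell and 9 did not pass in limma (median log2 -0.07). At an unadjusted p under 0.05 in limma the counts were also 0 and 4. The 4 calls are 30.8% of the measured genes, near the 34.1% of all genes tested (18.4% higher and 15.6% lower). Dusp19, whose product acts on the JNK branch, read 257, 248 and 240 with EPA, against 413, 384 and 415 in control cells, a fall (log2 -0.70, SE 0.072, limma adjusted p = 0.000115). Dusp8, a JNK and p38 phosphatase, fell with a log2 fold change of -0.50 (limma adjusted p = 0.0031). A second Dusp8 target gave -0.58. Dusp11, a phosphatase of RNA, and Styx, a catalytically dead relative that binds ERK, fell with log2 fold changes of -0.36 and -0.33. Both calls were lost without the filter on dim targets (limma adjusted p = 0.0598 and 0.0607) and against a bound of 0.2 log2 units. Spred1, the close relative of Spred2, read 1080, 1009 and 1076 with EPA, against 974, 984 and 976 in control cells. All its EPA arrays were above its control arrays, as for 24.9% of all genes tested. The difference did not pass (log2 0.11, SE 0.0688, limma adjusted p = 0.25).

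Of 26 genes listed as other negative regulators of receptor and Ras signalling, 20 were measured. Of these 6 rose, 0 fell and 14 did not pass in limma (median log2 0.15). At an unadjusted p under 0.05 in limma the counts were 8 higher and 0 lower. The 6 calls, all higher, are 30.0% of the measured genes. Of all genes tested 34.1% passed in either direction, 18.4% as higher and 15.6% as lower. The count in this list was 3 against the bound of 0.2 log2 units, where Lrig1, Ier3 and Socs3 kept their calls. Lrig1, which promotes breakdown of ErbB receptors, rose 2.00-fold, with 938, 896 and 878 on the EPA arrays, against 460, 441 and 459 on the control arrays. The early response gene Ier3 rose 1.62-fold, the cytokine receptor inhibitor Socs3 1.51-fold and the Ras GTPase-activating protein Rasa3 1.29-fold. The list is broad, and Ier3 and Socs3 are not dedicated inhibitors of Ras signalling. Errfi1, a feedback inhibitor of the EGF receptor, rose 1.25-fold (limma adjusted p = 0.00706), a call lost without the filter on dim targets. The Errfi1 and Rasa3 calls were also lost against the bound of 0.2 log2 units.

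Upstream, 9 of 10 measured growth factor receptor genes rose and 0 fell, of 19 listed (median log2 0.45). The 19 include fatty acid receptor genes, which were not above background. At an unadjusted p under 0.05 limma gave 10 higher and 0 lower. The calls, all higher, are 90.0% of the measured genes, against 34.1% of all genes tested (18.4% higher and 15.6% lower). This list, like the others, was chosen with earlier results of these data known, so its share is descriptive and not a test. The count was 5 without the filter on dim targets and also 5 against the bound of 0.2. Pdgfra and Fgfrl1 rose 1.78-fold and 1.51-fold, and Igf1r 1.41-fold. Met was below the limit on all control arrays and was at least 1.43-fold higher with EPA, with the control group set at the limit. It counts as measured through its EPA arrays only. Pdgfra and Pdgfrb are also on the fibroblast marker list whose summed intensity is given above.

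Of 30 ERK cascade genes 24 were measured, and 3 rose, 3 fell and 18 did not pass (median log2 0.04). These calls are 25.0% of the measured genes, below the 34.1% of all genes tested. The kinase genes Mknk1 and Araf fell with log2 fold changes of -0.47 and -0.40, the second a call lost without the filter on dim targets and against the bound of 0.2. The count of called genes in this list was 2 without the filter on dim targets and 2 against the bound of 0.2. It was 3 without EPA replicate 2 and 3 without control replicate 1. The Mapk3 and Shc1 calls below were also lost without the filter on dim targets and against the bound of 0.2. Mapk3, which encodes ERK1, rose on the full set of arrays (log2 0.29, limma adjusted p = 0.0312). That call was lost without EPA replicate 1 (log2 0.21), EPA replicate 2 (0.32), control replicate 1 (0.25), control replicate 2 (0.31) or control replicate 3 (0.30). The adaptor gene Shc1 (log2 0.24) lost its call without EPA replicate 2 (0.22), EPA replicate 3 (0.23), control replicate 1 (0.21) or control replicate 2 (0.22). Map2k2 was at 0.09 on the log2 scale, without a call, and Map2k1 was not above background.

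Of 33 genes of the JNK and p38 cascades 26 were measured, and 2 rose, 3 fell and 21 did not pass (median log2 -0.05). These calls are 19.2% of the measured genes, below the 34.1% of all genes tested. The count of called genes was 2 without the filter on dim targets, 2 against the bound of 0.2 and 3 without EPA replicate 3. Gadd45a and Gadd45b, related stress-induced activators of these cascades, went opposite ways, with log2 fold changes of -0.74 and 0.51, the second 0.84 with the background mode subtracted. Map3k6 fell with -0.27. The Map3k6 and Map3k3 calls were lost without the filter on dim targets and against the bound of 0.2. Map3k3 had the same value, and its call was lost without EPA replicate 2 (-0.27), EPA replicate 3 (-0.22), control replicate 1 (-0.29), control replicate 2 (-0.23) or control replicate 3 (-0.28). The kinases that Dusp1, Dusp10 and Dusp16 act on, encoded by Mapk8 and Mapk14, were at -0.04 and 0.10 on the log2 scale, without a call.

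Transcripts that ERK activity is known to induce did not move as 1 block. Of 30 listed 26 were measured, and 7 rose, 2 fell and 17 did not pass (median log2 0.09). These calls are 34.6% of the measured genes, near the 34.1% of all genes tested. The 9 calls were 5 without the filter on dim targets and 4 against the bound of 0.2. Plaur, Kcnn4, Hbegf and Epha2, which encode the urokinase receptor, a potassium channel, an EGF receptor ligand and an ephrin receptor, rose 1.72-fold, 1.66-fold, 1.64-fold and 1.42-fold. The ETS factor genes Etv4 and Etv5, often read together with Dusp6 and Spry4, were at -0.08 and -0.16 on the log2 scale, without a call, and Egr1 had -0.20 (limma adjusted p = 0.0652). Phlda1 had -0.13 and passed as lower only without EPA replicate 1 (-0.39, limma adjusted p = 0.0435). No named target was found for Fosl1. Of 17 transcripts listed as stress-kinase-responsive 11 were measured, and 1 rose, 4 fell and 6 did not pass (median log2 -0.08). These calls are 45.5% of the measured genes, against 34.1% of all genes tested. The activity of JNK and p38 was not measured, and its part in these changes was not tested. Ppp1r15a, Atf3 and Ddit3 fell with log2 fold changes of -1.46, -1.48 and -0.99, and Tnfaip3 rose 1.61-fold. Tnfaip3 was above the background limit on 3 of 3 EPA arrays and 1 of 3 control arrays, and its log2 value of 0.68 was 1.74 with the background mode subtracted. Dusp1, which stress kinases also induce, did not pass in either direction.

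**Figure D3:**
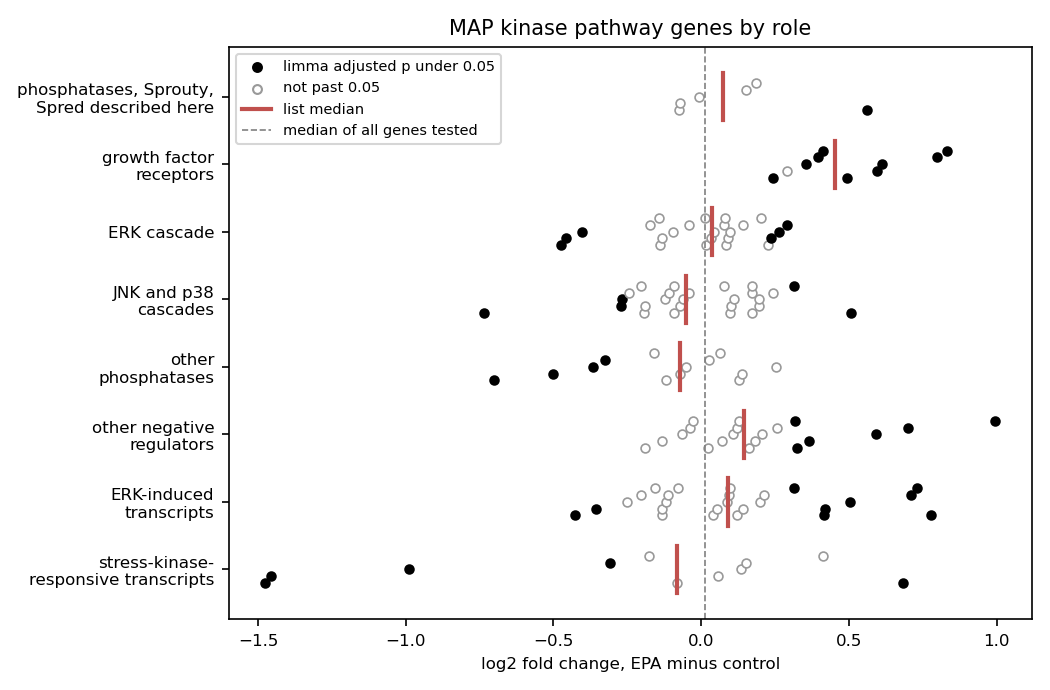
Log2 fold change, EPA minus control (horizontal axis), of each measured gene, grouped by role (rows; vertical spread within a row only separates points); filled points passed a limma adjusted p of 0.05, red marks are list medians and the dashed line is the median of all genes tested, 0.01. The growth factor receptor genes have a median of 0.45, while the 6 genes described here have a median of 0.07 with Dusp4 apart from the rest. The lists were chosen with earlier results of these data known, so the medians are descriptive.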

How the data were processed

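The deposited series table gives 1 linear intensity per target and sample. Other exports of the series name GenomeStudio 1.7.0 and quantile normalization, per the file headers, and sorted intensity values differed between arrays by at most 0.467%. The sources used here do not state how probes were summarised or background was treated. A log2 ratio and raw p-values (test not stated) come from the authors' deposited table. Another 102 columns of per-array values match no sample label and were not used.

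Names for target IDs came from RefSeq (assembly GRCm38.p6, names only): 16218 by current symbol, 5703 by 1 older synonym, 117 with several and 8790 with none, the last 2 left out. The background limit was the mode of all intensities (28.1) plus the one-sided 0.05 level of the spread below it (SD 6.94). Of 11785 targets above it, 9804 were named, giving 9265 genes, each with its brightest target (for members, the target with the member's ID). The test of log2 intensities used R 4.3.3 with limma 3.58.1 (lmFit, eBayes, two-sided, Benjamini-Hochberg over all genes). The fit was tested on simulated data. Folds are ratios of geometric means.

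The members and the 7 pathway lists were chosen with earlier results of these data known. Named are all members, the 4 called genes with the smallest p of each list and a panel of 13 genes; Pdgfrb, marker genes, second targets and Dusp7 were named after their values were seen. Some genes that this rule names are not reported here. Alternatives covered scale, filter, normalization, variance model, array weights, targets per gene, a replicate block, single arrays left out, and a test against 0.2 log2 units. Deviations from group means of same-numbered samples correlated at -0.03, -0.19 and 0.11, so the numbers were not taken as pairs.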

Additional observations from a re-analysis of the deposited data

How the results depend on the processing

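Dusp4 was the only called gene of the 6 under all 16 alternatives, and its log2 fold change ran from 0.52 to 0.60 with single arrays left out. Across all genes, 3156 calls became 1313 without the filter on dim targets and 1066 against the bound of 0.2 log2 units; leaving out single arrays gave 2358 to 2930; the cause was not tested. Of the 130 measured pathway genes, 44 calls became 24 and 22 under the same settings, and 38 to 45 with single arrays left out. Some estimates without a call changed sign when single arrays were left out, with ranges of -0.032 to 0.011 for Dusp16, -0.22 to 0.084 for Spry4, -0.11 to 0.010 for Mapk8, -0.13 to 0.00015 for Etv4 and -0.39 to 0.052 for Phlda1, which passed as lower at its lowest value. With the replicate number as a block, 2928 genes passed, Dusp4 kept its call (limma adjusted p = 0.00155), and Mapk3 and Shc1 lost theirs (0.0538 and 0.0522); of the 6 samples, EPA replicate 3 alone correlated best with its own number. Shc1 also lost its call with the background mode subtracted (0.0502), and Egr1 gained one on the log2 of intensity plus 16 scale (0.0475) and with a trended, robust variance fit (0.0371). Of 30 named list genes called, 21 kept their call in every alternative. Signal over background limits Spry2 and Spred2, and quantile normalization hides any array-wide shift.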

Other observations

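Some genes of the related lists have a second target above background, fitted together with all named targets. For Dusp3, a small phosphatase of ERK and JNK, the brighter target had a log2 fold change of 0.25 (SE 0.143, limma adjusted p = 0.206), with 415, 577 and 571 on the EPA arrays and 374, 502 and 432 on the control arrays. Its dimmer target read 80.2, 82.0 and 84.5 with EPA and 69.6, 67.7 and 65.6 in control cells, and rose by 0.28 on the log2 scale (SE 0.0693, limma adjusted p = 0.0118). The targets thus share a sign and differ in their call. For Etv5 the targets had opposite signs, -0.16 and 0.17, and neither passed. The EGF receptor gene Egfr rose on both of its targets, with log2 fold changes of 0.24 and 0.34. Igf1r rose on its brighter target (0.49), and its dimmer target, near background, gave -0.04. Pea15a, whose product holds ERK in the cytoplasm, had 0.02 on its brighter target, without a call, and rose by 0.28 on the log2 scale on its dimmer one (limma adjusted p = 0.0357). These targets were singled out after their values were seen.

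Dusp7, the closest relative of Dusp6 among the ERK phosphatases, read 842, 822 and 844 on the EPA arrays and 734, 766 and 796 on the control arrays. It did not pass in limma (log2 0.13, adjusted p = 0.183), and the authors' deposited table lists it with a log2 ratio of 0.128 and a raw p of 0.04. It too was singled out after its values were seen.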
